A study of Mus musculus with 8 samples.

Results

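The genes described here are 54 genes of fatty acid oxidation and of the peroxisome in mouse liver. They were named by symbol with no threshold on their values, but with earlier results of these data known, and each was found through the RefSeq accession that its array probe carries. All 54 were measured, among 26552 genes and unnamed transcripts tested. By the main site of the product, 17 were placed in mitochondria, 28 in peroxisomes and 9 in both or elsewhere (Acad11, Eci2 and Crat in both; Slc27a2, Acsl1, Fabp1, Ucp2, Pdk4 and Vnn1 elsewhere or shared). These placements come from general knowledge of the proteins. Ucp2 and Pdk4 also encode mitochondrial proteins but were not counted among the 17.

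The liver breaks down fatty acids in both organelles. Long-chain acids enter mitochondria through the carnitine shuttle and are shortened by repeated rounds of dehydrogenation, hydration, a second oxidation and thiolysis, which feed the respiratory chain and ketone body synthesis. Peroxisomes shorten very long, branched and bile-acid side chains, pass hydrogen peroxide to catalase, and depend on peroxins for import of their enzymes and for division. Many genes of both organelles are transcribed under PPARA, a receptor for fatty acids that binds DNA with RXRA. BCL6 is a zinc-finger repressor of transcription.

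RNA from whole liver was measured on 8 arrays of 1 colour, 2 in each of 4 groups. The groups were wild-type males, males with a liver-specific Bcl6 knockout, wild-type females and females with the same knockout, and all mice were 10 to 11 weeks old. Neither the Cre driver or other means of deletion nor whether each array came from its own mouse is given in the sources used here. Spread between the arrays of a group may therefore be technical, and the p-values measure no more than that spread. The comparisons asked how these genes differ between genotypes in each sex, and between the sexes in each genotype.

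On each array 33677 to 36459 of 59305 spots stood well above background, and precision is limited by how few arrays there are. Bcl6 was read by 1 probe and gave no lower level under the knockout label (log2 difference 0.81 ± 1.06 in males and 1.11 ± 1.06 in females, SE; limma adjusted p = 0.676 and 0.556). Where that probe lies relative to the deleted part is not given, so it checks none of the labels, and every direction given for knockout follows them. Xist and 4 Y-linked genes matched the sex labels, with a gap of at least 3.92 on the log2 scale between male and female arrays. Of 11 hepatocyte markers, 1 passed the threshold in either sex (Ttr, which was lower), and their summed level was 6029 to 6481 in wild type and 5588 to 6321 in arrays labelled knockout. Summed levels are linear, in multiples of each array's 75th percentile. Sex and slide row cannot be told apart, since row 1 held the females and row 2 the males, while both genotypes were present in each row.

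Levels below are log2 of the processed signal relative to the array's 75th percentile, differences are log2, and the error of a difference is its SE with n = 2 arrays a group. A gene is said to have risen, fallen or passed the threshold at a limma p under 0.05 after Benjamini-Hochberg adjustment over all genes tested. Of the 54 genes, 53 were well above background on all 8 arrays. Hao2 was so on 6, the exceptions being both wild-type male arrays. In whole liver, fewer cells of a type and less RNA per cell cannot be told apart.

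In males, 14 of the 54 genes passed the threshold between arrays labelled knockout and wild type, 5 higher and 9 lower, against 10.7% of all genes tested (5.77% higher and 4.93% lower). In females 7 passed, 1 higher and 6 lower, against 5.93% of all (3.48% higher and 2.45% lower). Eci2, Crot, Pex11a, Nudt7 and Slc27a2 fell in both sexes and Ucp2 rose in both. None of the 17 genes placed in mitochondria passed in either sex. These 17 leave out Ucp2, whose product is a carrier of the inner mitochondrial membrane. The peroxisomal genes held 10 of the male calls and 4 of the female ones. The plot of differences for all 54 genes shows this split.

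**Figure D1:**
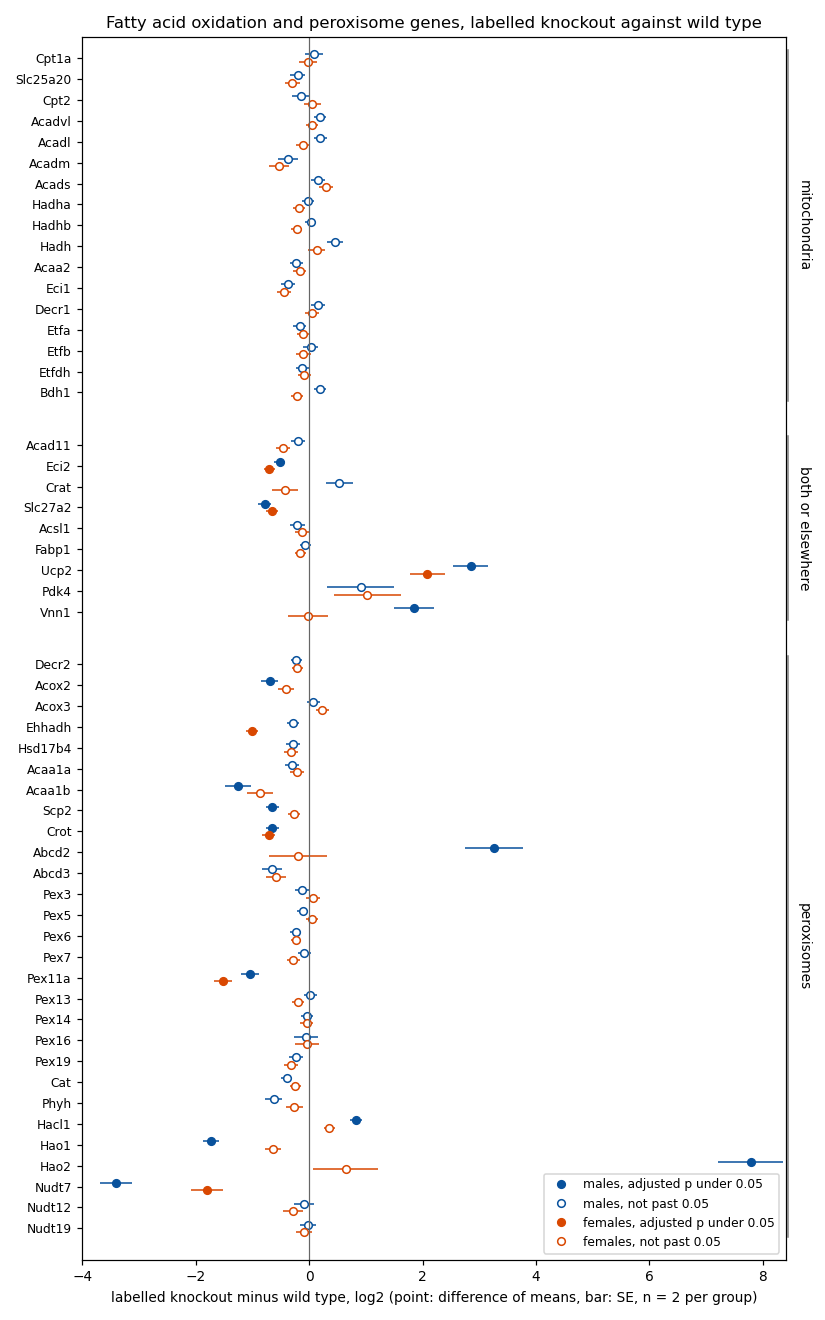
Log2 difference between arrays labelled knockout and wild type (horizontal axis) for each of the 54 genes, in males (blue) and females (orange); points are differences of means of n = 2, bars are SEs and filled points passed adjusted p under 0.05. The 17 mitochondrial genes lie between -0.53 and 0.46, all unfilled, while the peroxisomal genes reach -3.40 (Nudt7) and 7.79 (Hao2, a fitted value) in males.

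The start regions of 7 genes are given here so that the expression values can be read beside the DNA. Hao1, Hao2, Nudt7 and Pex11a are shown as peroxisomal genes that changed by more than 1 on the log2 scale in males, Scp2 and Slc27a2 as genes past the threshold that hold a match to the first motif below, and Hadhb as a mitochondrial gene that did not pass and holds the second. They were picked after their values and matches were seen. They come from RefSeq on build GRCm38.p6, where 46 of the 54 genes had an entry, and each holds the 250 bases before the annotated start, 5′ to 3′ along the gene. Capitals mark matches, on either strand, to AGGTCA, the hexamer bound by many nuclear receptors (TGACCT on the other strand), or to TTCNNNGAA, a palindrome bound by STAT5 proteins and similar in form to BCL6 sites. Hao1 and Hao2 encode 2-hydroxy acid oxidases, which moved in opposite directions, and Nudt7 encodes a hydrolase of peroxisomal coenzyme A. Pex11a encodes a peroxisome division factor, Scp2 a thiolase and lipid carrier, Slc27a2 an activating enzyme for very long-chain acids, and Hadhb the beta subunit of the mitochondrial trifunctional protein.
Hao1, chr2:134554353-134554602, minus strand: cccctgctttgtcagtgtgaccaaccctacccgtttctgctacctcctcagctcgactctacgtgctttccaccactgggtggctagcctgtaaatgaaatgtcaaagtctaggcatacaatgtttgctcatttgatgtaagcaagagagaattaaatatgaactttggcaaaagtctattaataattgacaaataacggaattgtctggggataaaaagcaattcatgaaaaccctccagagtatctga
Hao2, chr3:98893231-98893480, minus strand: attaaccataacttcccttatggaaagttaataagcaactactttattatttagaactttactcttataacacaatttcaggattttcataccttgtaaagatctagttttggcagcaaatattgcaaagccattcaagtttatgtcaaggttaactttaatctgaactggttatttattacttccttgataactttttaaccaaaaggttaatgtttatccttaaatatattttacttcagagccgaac
Nudt7, chr8:114133368-114133617, plus strand: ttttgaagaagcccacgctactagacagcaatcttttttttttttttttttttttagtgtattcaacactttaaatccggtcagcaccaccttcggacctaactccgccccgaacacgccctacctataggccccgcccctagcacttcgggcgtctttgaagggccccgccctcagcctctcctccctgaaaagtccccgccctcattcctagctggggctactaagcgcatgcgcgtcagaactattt
Pex11a, chr7:79743132-79743381, minus strand: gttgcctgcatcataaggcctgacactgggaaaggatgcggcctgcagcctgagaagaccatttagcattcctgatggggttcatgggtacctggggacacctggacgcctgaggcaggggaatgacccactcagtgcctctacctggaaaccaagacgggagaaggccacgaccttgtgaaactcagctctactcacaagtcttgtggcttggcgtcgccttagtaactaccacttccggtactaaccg
Scp2, chr4:108118548-108118797, minus strand: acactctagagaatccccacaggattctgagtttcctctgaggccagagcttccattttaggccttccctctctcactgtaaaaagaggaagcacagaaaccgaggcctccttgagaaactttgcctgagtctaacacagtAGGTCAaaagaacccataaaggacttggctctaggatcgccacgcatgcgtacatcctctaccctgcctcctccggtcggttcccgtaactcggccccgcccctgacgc
Slc27a2, chr2:126552774-126553023, plus strand: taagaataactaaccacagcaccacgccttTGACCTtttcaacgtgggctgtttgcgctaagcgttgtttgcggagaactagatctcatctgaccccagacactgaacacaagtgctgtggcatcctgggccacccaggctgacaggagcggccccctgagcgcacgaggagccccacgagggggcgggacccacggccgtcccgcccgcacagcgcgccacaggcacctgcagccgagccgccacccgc
Hadhb, chr5:30155003-30155252, plus strand: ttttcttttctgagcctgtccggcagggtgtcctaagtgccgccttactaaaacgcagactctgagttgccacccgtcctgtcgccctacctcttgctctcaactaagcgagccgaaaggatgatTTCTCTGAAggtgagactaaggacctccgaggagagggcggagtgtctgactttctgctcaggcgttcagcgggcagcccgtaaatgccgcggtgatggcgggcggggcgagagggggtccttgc

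The search covered 250 bases before to 50 after each start. AGGTCA was found in 8 of the 46 genes (17.4%) against 18.1% of 27025 genes with an entry, and in 2 of the 13 that passed a threshold, Scp2 and Slc27a2. In Scp2 the match began at -109 and in Slc27a2 at -220, counting the start as 0. TTCNNNGAA was found in 4 of 46 (8.70% against 9.55% of all) and in none of those 13. Those 4 were Cpt2, Hadha, Hadhb and Pex16, and Hadha and Hadhb share 1 match (chr5:30155128-30155136), because their starts lie 273 bases apart on opposite strands. The direct repeat read by PPARA with RXRA, which is this hexamer repeated with 1 base between and so overlaps the first motif, had no match among the 46 and 0.0481% among all. A match is a string of letters, and a window without one shows only that these letters are not in it.

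None of the 17 genes placed in mitochondria passed the threshold in either sex. In the carnitine shuttle, Cpt1a (the outer-membrane transferase that gates entry), Cpt2 (the inner one) and Slc25a20 (the carrier) differed by -0.20 to 0.09 in males and by -0.30 to 0.06 in females. Cpt1a read 5.34 and 5.49 in wild-type males, 5.48 and 5.52 in knockout-labelled males, 5.67 and 5.30 in wild-type females and 5.60 and 5.33 in females labelled knockout. Every other Cpt1a array thus lay between the pair of wild-type female ones, and none of the 3 shuttle genes passed. The acyl-CoA dehydrogenases, which open each round and differ in the chain length they take, gave 0 of 5 past the threshold in each sex. Of all genes tested, 10.7% passed in males and 5.93% in females. The 5 dehydrogenases ranged from -0.37 to 0.20 in males and from -0.53 to 0.30 in females. The lowest value in both sexes belonged to Acadm, the medium-chain enzyme (-0.37 ± 0.17, adjusted p = 0.234 in males; -0.53 ± 0.17, adjusted p = 0.134 in females).

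The enzymes of the next steps did not pass either. Hadha and Hadhb, the subunits of the trifunctional protein, differed by -0.02 and 0.03 in males and by -0.18 and -0.22 in females. Hadhb read 5.72 and 5.74 in wild-type males against 5.82 and 5.70 in males labelled knockout. Those male arrays overlapped, and the female ones did not (5.91 and 5.95 against 5.68 and 5.74). Hadh, the short-chain hydroxyacyl-CoA dehydrogenase, had the largest mitochondrial difference in males (0.46 ± 0.14, adjusted p = 0.102), with 5.57 and 5.53 in wild type against 6.07 and 5.94. Acaa2, the thiolase, differed by -0.23 and -0.17 in males and females. The isomerase Eci1, needed for unsaturated acids, differed by -0.38 ± 0.12 in males (adjusted p = 0.115) and -0.44 ± 0.12 in females (adjusted p = 0.0971), without overlap of arrays in either sex. Etfa, Etfb and Etfdh, which carry electrons from the dehydrogenases to the respiratory chain, lay between -0.17 and 0.02 in both sexes. Bdh1, the ketone body dehydrogenase, differed by 0.19 ± 0.11 in males and by -0.22 ± 0.11 in females, and the difference between the sexes did not pass (interaction 0.41 ± 0.15, adjusted p = 0.533).

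The 95% intervals bound what these arrays could have missed. For 17 of 17 mitochondrial genes the interval of the difference lay within 1 on the log2 scale (2-fold) either way, in males and in females. The same held for 71.7% of all genes tested in males and 73.2% in females. By limma 0 of the 17 passed, and 2 in each sex had an unadjusted p under 0.05. Of all 26552 genes tested, 7228 in males and 6612 in females had such a p. A fit with a spread that follows the level called 1 mitochondrial gene in each sex, Hadh in males and Eci1 in females, and a fit with another background correction called Eci1 in females. Hadh was also called in males without wild-type female replicate 1 or replicate 2.

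Several enzymes of peroxisomal beta-oxidation fell in arrays labelled knockout. The 7 genes of this step gave 3 lower in males and 1 lower in females, where 4.93% and 2.45% of all genes tested were lower. Their medians were -0.30 and -0.32, against -0.04 and 0.00 over all genes tested. In this group 6 genes had male arrays lower without overlap, and 6 had female ones, where 34.7% and 27.6% of all genes did. Acox2, the oxidase for branched chains and bile-acid precursors, read 6.68 and 6.60 in wild-type males against 5.99 and 5.88 in males labelled knockout. It fell by 0.70 ± 0.15 in males (adjusted p = 0.0359), and a weaker probe of the gene gave -0.75 at adjusted p = 0.0538. In females it read 6.44 and 6.08 against 5.93 and 5.78 (-0.41 ± 0.15, adjusted p = 0.158). The arrays did not overlap in either sex.

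Thiolysis is the last step of the round. Acaa1b, a peroxisomal thiolase, read 7.69 and 7.11 in wild-type males against 6.24 and 6.05 in males labelled knockout, a fall of 1.25 ± 0.23 (2.38-fold, adjusted p = 0.0238). The female arrays read 7.44 and 7.23 against 6.30 and 6.65 (-0.86 ± 0.23, adjusted p = 0.0865). Its near-identical neighbour in sequence, Acaa1a, had 2 probes that differed in call: the brighter gave -0.30 in males and the other -0.91 (adjusted p = 0.172 and 0.0492, over all probes). Probes of this pair may read both transcripts, so their split is uncertain. Scp2, whose gene encodes a thiolase for branched chains and a lipid carrier, read 9.04 and 8.95 in wild-type males against 8.35 and 8.34 in males labelled knockout. It fell by 0.65 ± 0.11 in males (adjusted p = 0.0189). In females it read 8.59 and 8.56 against 8.41 and 8.20 (-0.27 ± 0.11, adjusted p = 0.197), so that wild-type males stood above all 6 other arrays.

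For Ehhadh, the bifunctional enzyme of hydration and oxidation, the difference passed in females and not in males. It read 5.01 and 5.04 in wild-type females and 4.06 and 3.98 in females labelled knockout, a fall of 1.01 ± 0.10 (2.01-fold, adjusted p = 0.00627). Wild-type males read 4.14 and 3.98 and males labelled knockout 3.75 and 3.80 (-0.29 ± 0.10, adjusted p = 0.14). The male arrays were thus lower without overlap too, and the interaction did not pass (0.72 ± 0.14, limma adjusted p = 0.258). Wild-type females stood apart at the top, and all 6 other arrays lay between 3.75 and 4.14. Hsd17b4, the other bifunctional enzyme, gave -0.29 and -0.32 in males and females, and Acox3, an oxidase, gave 0.08 and 0.23. Neither passed. Dimmer probes of Acox3 had the opposite sign, with -0.39 and -0.32 in males and -0.02 and -0.30 in females, also without passing.

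Transport into peroxisomes and acyl transfer moved in both directions. Crot, which moves shortened chains onto carnitine for export, read 6.04 and 5.89 in wild-type males, 5.29 and 5.34 in knockout-labelled males, 6.18 and 6.13 in wild-type females and 5.34 and 5.54 in females labelled knockout. It fell by 0.65 ± 0.12 in males and by 0.72 ± 0.12 in females (adjusted p = 0.0221 and 0.0246), and the genotypes did not overlap in either sex. Abcd2, a transporter of very long-chain acyl-CoA, read -2.37 and -2.87 in wild-type males against 0.62 and 0.66 in males labelled knockout. It rose by 3.26 ± 0.52 in males (9.58-fold, adjusted p = 0.0159). Females read -0.32 and 1.28 in wild type and 0.57 and 0.00 in arrays labelled knockout, which overlapped (-0.20 ± 0.52, adjusted p = 0.845). The wild-type males were the low group, and both groups labelled knockout lay within the range of the wild-type females. Abcd3, another such transporter, gave -0.66 ± 0.18 in males and -0.58 ± 0.18 in females without overlap, at adjusted p = 0.0714 and 0.116.

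Among 9 peroxins, 1 passed in each sex, beside 10.7% of all genes in males and 5.93% in females. Pex11a, which promotes elongation and division of peroxisomes and is a known PPARA target, read 6.46 and 6.04 in wild-type males, 5.27 and 5.15 in knockout-labelled males, 6.44 and 6.51 in wild-type females and 4.90 and 5.02 in females labelled knockout. It fell by 1.04 ± 0.16 in males (2.06-fold, adjusted p = 0.0139) and by 1.52 ± 0.16 in females (2.86-fold, adjusted p = 0.00678). The other 8 peroxins serve membrane assembly (Pex3, Pex16, Pex19) and matrix import (Pex5, Pex6, Pex7, Pex13, Pex14). They lay between -0.24 and 0.02 in males and between -0.33 and 0.07 in females, and none passed. For all 8 the 95% interval lay within 1 on the log2 scale in each sex, as for 71.7% of all genes tested in males and 73.2% in females. Dimmer probes of Pex3, Pex6, Pex16 and Pex19 gave -0.39 to 0.04 in males and -0.44 to -0.06 in females, also without passing.

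The other peroxisomal enzymes held the largest rise and the largest fall of the 54 genes in males. Nudt7, which hydrolyses coenzyme A and its acyl esters in peroxisomes, read 7.86 and 7.94 in wild-type males against 4.45 and 4.54 in males labelled knockout. Wild-type females read 5.11 and 6.02 and females labelled knockout 3.67 and 3.85. It fell by 3.40 ± 0.28 in males (10.6-fold, adjusted p = 0.00184) and by 1.81 ± 0.28 in females (3.50-fold, adjusted p = 0.0221), with no overlap between any of the 4 groups. A second, dimmer probe gave -3.88 in males and -1.76 in females, the latter at adjusted p = 0.0867 over all probes. The related Nudt12 and Nudt19, also hydrolases, differed by -0.29 to -0.03 over both sexes and did not pass.

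Hao1, the glycolate oxidase, read 4.86 and 5.05 in wild-type males, 3.26 and 3.19 in knockout-labelled males, 3.81 and 4.12 in wild-type females and 3.27 and 3.37 in females labelled knockout. It fell by 1.73 ± 0.14 in males (3.33-fold, adjusted p = 0.00173) and differed by -0.64 ± 0.14 in females (adjusted p = 0.0561), where the arrays did not overlap either. Hao2, the oxidase for longer 2-hydroxy acids, went the other way. It read -6.66 and -6.20 in wild-type males, not well above background, and 1.42 and 1.29 in males labelled knockout. That is a rise of at least 48.2-fold (adjusted p = 0.00124), taken against the lowest signal well above background on the wild-type male arrays. Females read 1.73 and -0.17 in wild type and 1.59 and 1.26 in arrays labelled knockout, overlapping, with 0.65 ± 0.58 (adjusted p = 0.528). With normexp background correction the fitted male difference was 2.92 for Hao2 and 1.69 for Abcd2, and both passed.

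Hacl1, the lyase of alpha-oxidation and of 2-hydroxy acids, was the third peroxisomal gene that rose in males. It read 6.29 and 6.28 in wild-type males against 7.06 and 7.15 in males labelled knockout (0.83 ± 0.10, 1.77-fold, adjusted p = 0.00647). In females it read 6.60 and 6.66 against 7.05 and 6.92 (0.35 ± 0.10, adjusted p = 0.0961). Both sexes had higher levels in arrays labelled knockout without overlap, and the male difference passed while the female one did not (interaction 0.47 ± 0.14, adjusted p = 0.425). Phyh, the hydroxylase that opens alpha-oxidation, gave -0.63 ± 0.15 in males (adjusted p = 0.0509), and its second probe gave -0.88 at adjusted p = 0.0114. Cat, the catalase gene, gave -0.40 ± 0.10 in males (adjusted p = 0.0535) and -0.25 ± 0.10 in females (adjusted p = 0.183).

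**Figure D2:**
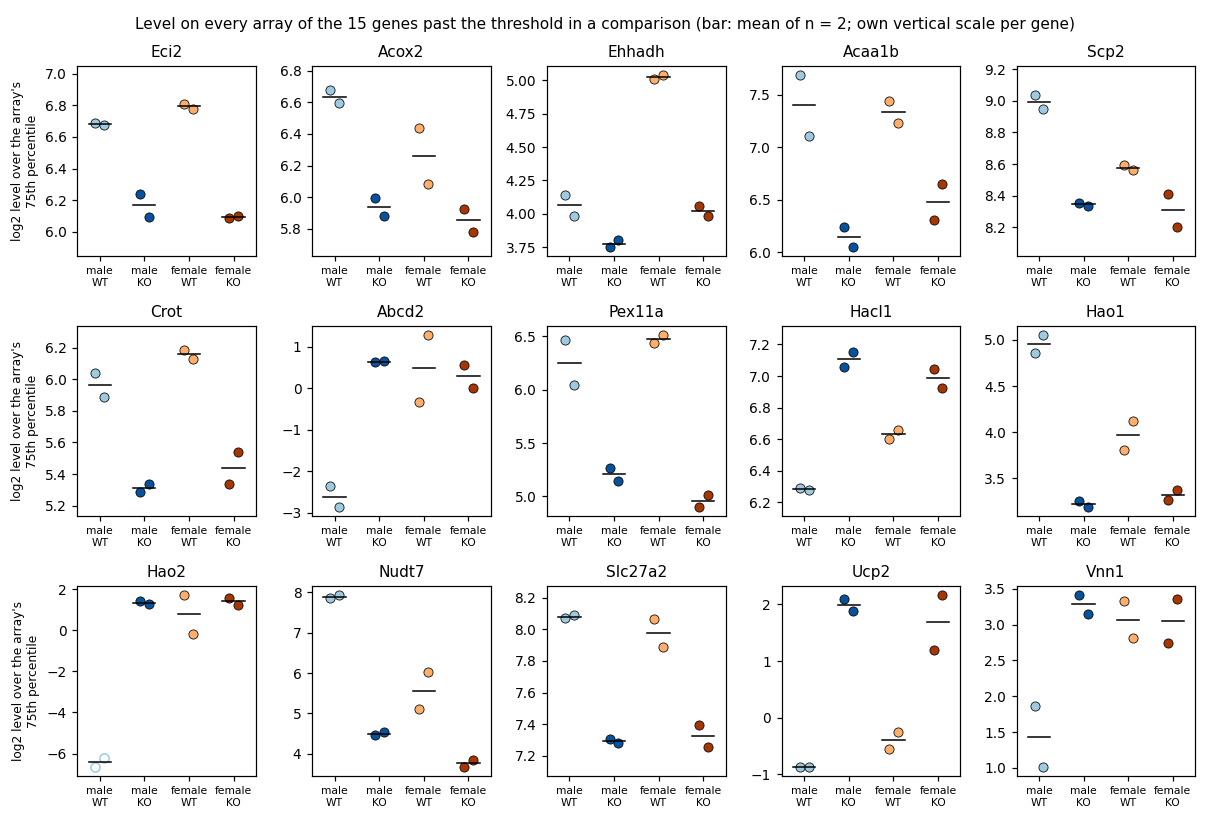
Log2 level relative to the array's 75th percentile (vertical axis, own scale per gene) on each of the 8 arrays for the 15 genes that passed the threshold in at least 1 comparison; KO stands for arrays labelled knockout, bars are means of n = 2, and open points (Hao2 in wild-type males) were not well above background. In Abcd2, Hao2 and Vnn1 the wild-type males lie below the other 3 groups, and in Ehhadh the wild-type females lie above them.

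Of the 9 genes placed in both organelles or elsewhere, 4 passed in males and 3 in females, where 10.7% and 5.93% of all genes did. Eci2, an isomerase for unsaturated acids, read 6.69 and 6.68 in wild-type males, 6.24 and 6.09 in knockout-labelled males, 6.81 and 6.78 in wild-type females and 6.08 and 6.10 in females labelled knockout. It fell by 0.52 ± 0.10 in males and by 0.70 ± 0.10 in females (adjusted p = 0.0265 and 0.016). Slc27a2, which activates very long-chain acids and takes part in uptake, read 8.07 and 8.09 in wild-type males, 7.31 and 7.28 in knockout-labelled males, 8.06 and 7.89 in wild-type females and 7.39 and 7.26 in females labelled knockout. It fell by 0.79 ± 0.11 in males and by 0.65 ± 0.11 in females (adjusted p = 0.0102 and 0.0263). For both genes the wild-type arrays of either sex stood above all arrays labelled knockout. Acsl1, the main acyl-CoA synthetase, and Fabp1, the cytosolic carrier, differed by -0.21 to -0.07 over both sexes.

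Ucp2, a carrier of the inner mitochondrial membrane, read -0.87 and -0.86 in wild-type males, 2.09 and 1.88 in knockout-labelled males, -0.56 and -0.24 in wild-type females and 1.20 and 2.17 in females labelled knockout. It rose by 2.85 ± 0.31 in males (7.21-fold, adjusted p = 0.00467) and by 2.08 ± 0.31 in females (4.23-fold, adjusted p = 0.0195). All 4 arrays labelled knockout stood above all 4 wild-type ones, and both Ucp2 probes passed in both sexes. Vnn1, a pantetheinase that yields the precursor of coenzyme A, read 1.86 and 1.01 in wild-type males against 3.42 and 3.16 in males labelled knockout. It rose by 1.85 ± 0.35 in males (3.60-fold, adjusted p = 0.0273). Females overlapped, at 3.32 and 2.82 against 2.75 and 3.36 (-0.02 ± 0.35, adjusted p = 0.981). Pdk4, a kinase that diverts pyruvate from oxidation, varied between replicates (wild-type females at 0.45 and -0.81) and gave 0.91 ± 0.59 and 1.02 ± 0.59, neither past the threshold.

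Some of these genes are also transcribed in cells other than hepatocytes, so marker lists were read on the same arrays. Of 10 markers of macrophages and Kupffer cells, 0 passed in either sex, and their summed level was 120.0 to 127 in wild-type males against 124 to 159 in males labelled knockout. Of 6 B and plasma cell markers, 3 rose in males and 1 in females, with a summed level of 1.04 to 1.25 against 2.42 to 2.53 in males. Of 8 endothelial markers, 3 rose in males and 1 in females, with 72.4 to 75.5 against 107 to 114 in males. Of 8 stellate cell markers, 3 rose in males (Colec11, Pdgfrb and Col1a1), with a summed level of 76.0 to 89.2 against 102 to 114, while Lrat fell in females and gave -1.01 in males (adjusted p = 0.0526). The part of these cells in the rises of Ucp2, Vnn1 and Abcd2 was not tested. Abcd2 is also a gene of fat cells, and 3 of the 5 fat cell markers, Adipoq, Plin1 and Ucp1, were not well above background on both arrays of any group. The other two were measured: Lep did not pass, and the receptor gene Adrb3 fell in both sexes, from 1.72 and 1.17 to -3.69 and -3.62 in males and from 0.25 and -0.20 to -2.91 and -3.58 in females. The summed level of this pair was 3.64 to 4.40 in wild-type males against 1.40 to 1.41 in males labelled knockout. Lep gave 0.09 in males, and the fall of the sum was that of Adrb3. The part of fat cells in the rise of Abcd2 was not tested.

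Set side by side, the organelles differed in how many genes passed, with Ucp2 counted in neither. Their median shifts lay further apart in males than in females, which did not hold for the mean over genes. The male medians were 0.02 for 17 mitochondrial and -0.23 for 28 peroxisomal genes, and the female ones -0.11 and -0.26, beside -0.04 and 0.00 over all genes tested. Male arrays were lower without overlap for 20 of 28 peroxisomal and 6 of 17 mitochondrial genes, against 34.7% of all genes. Female arrays were so for 18 of 28 and 9 of 17, both above the 27.6% of all genes. In females 23 of 28 peroxisomal and 12 of 17 mitochondrial differences lay below 0. As a summary per array, each gene was set against its own mean over the 8 arrays, and the median was taken over each organelle. The peroxisomal median was 0.14 and 0.13 in wild-type males against -0.08 and -0.11 in males labelled knockout. The female values were 0.17 and 0.02 against -0.16 and -0.15.

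The mitochondrial median overlapped between genotypes in males (-0.09 and -0.00 against 0.02 and -0.09). Its female values of 0.16 and -0.04 in wild type and -0.06 and -0.03 in arrays labelled knockout overlapped too. The gap between the organelles on the same array was 0.23 and 0.13 in wild-type males against -0.10 and -0.03 in males labelled knockout. The female values were 0.01 and 0.05 against -0.11 and -0.11. The genes of an organelle share each mouse and are no replicates, so no test is attached, and the female medians moved with 1 wild-type array: without replicate 1 they were -0.01 and -0.18 (mitochondria and peroxisomes), and without replicate 2 they were -0.20 and -0.32.

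**Figure D3:**
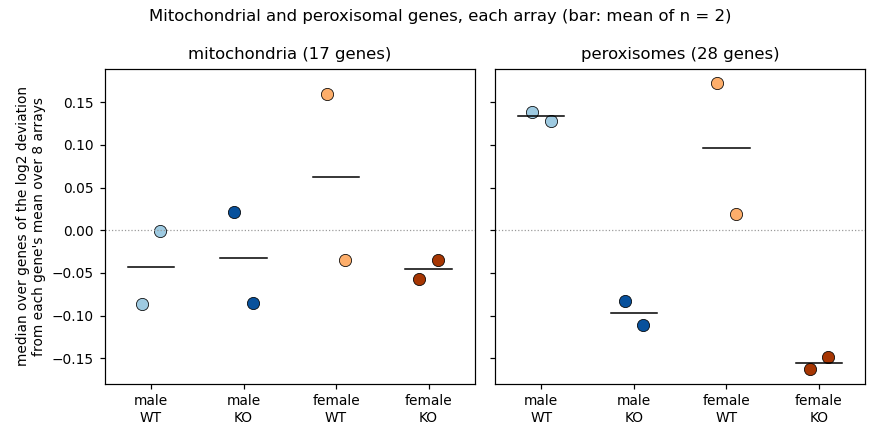
Median over the mitochondrial (left) and peroxisomal (right) genes of the log2 deviation from each gene's own mean over 8 arrays (vertical axis), for each array in the 4 groups; KO stands for arrays labelled knockout and bars are means of n = 2. The peroxisomal values lie between 0.02 and 0.17 in wild type and between -0.16 and -0.08 in arrays labelled knockout, while the mitochondrial ones overlap.

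Between wild-type males and females, 4 of the 54 genes passed, against 0.975% of all genes tested (0.614% higher in males and 0.362% lower), and all 4 were peroxisomal. Hao1 and Nudt7 were higher in males, by 0.99 ± 0.14 (1.99-fold, adjusted p = 0.0463) and 2.33 ± 0.28 (5.03-fold, adjusted p = 0.0298). Ehhadh was lower in males, by -0.97 ± 0.10 (1.95-fold, adjusted p = 0.0181), and Hao2 at least 32.4-fold lower (adjusted p = 0.00695). That limit rests on wild-type female arrays that lie far apart: it was 16.8-fold without replicate 1 and 62.6-fold without replicate 2. With normexp the fitted Hao2 difference was -2.48 (adjusted p = 0.0262), and in a fit of only the groups compared it did not pass (adjusted p = 0.108). Larger differences that did not pass were those of Abcd2 (-3.10 ± 0.52, adjusted p = 0.0633) and Vnn1 (-1.63 ± 0.35, adjusted p = 0.101), both lower in males without overlap. Of the mitochondrial genes 0 of 17 passed. Of all 26552 genes tested 4783 had an unadjusted p under 0.05, and 2 of the 17 did. These were Acadl (-0.41 ± 0.12, adjusted p = 0.164), the long-chain dehydrogenase, and Bdh1 (-0.40 ± 0.11, adjusted p = 0.147), both lower in males, and another background correction called both. Row of the slide and sex cannot be told apart in these values.

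Between males and females of the arrays labelled knockout, 0 of 54 passed, against 0.0753% of all genes. An unadjusted p under 0.05 was found for 2 of the 54 and for 1594 of all 26552 genes tested. The 4 genes that differed in wild type, and so were picked by their wild-type values, gave -0.10 ± 0.14 (Hao1), 0.74 ± 0.28 (Nudt7), -0.24 ± 0.10 (Ehhadh) and -0.07 ± 0.58 (Hao2). The 95% intervals were -0.44 to 0.25, 0.05 to 1.42, -0.49 to 0.00 and -1.48 to 1.34. The interval of Hao2 was the widest of these. Over all 54 genes the difference lay between -0.44 and 0.74, and for 48 its interval lay within 1 on the log2 scale. The same held for 81.8% of all genes tested.

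**Figure D4:**
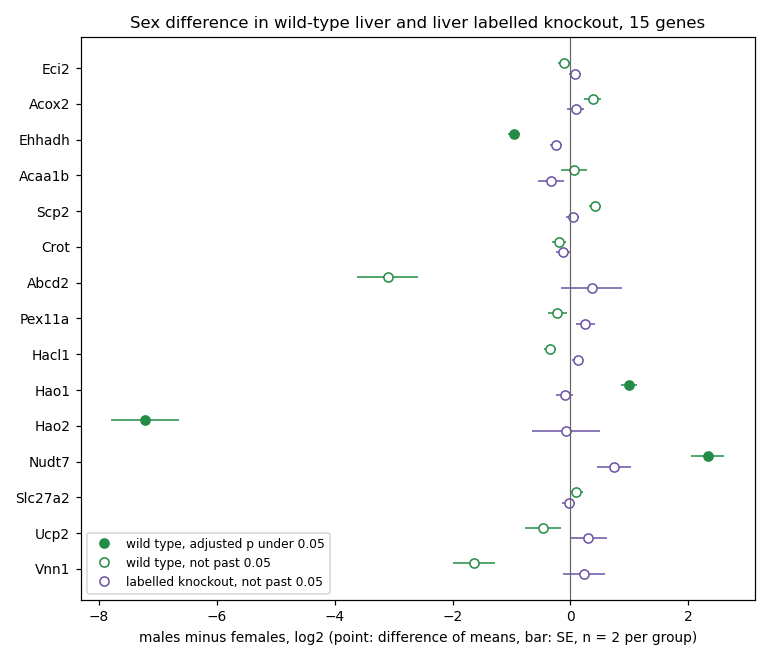
Log2 difference between males and females (horizontal axis) in wild type (green) and in arrays labelled knockout (purple) for the 15 genes past the threshold in at least 1 comparison; points are differences of means of n = 2, bars are SEs and filled points passed adjusted p under 0.05. The wild-type points spread from -7.21 (Hao2, a fitted value) to 2.33 (Nudt7), and the others lie between -0.33 and 0.74. The 15 genes were picked through comparisons that all include wild-type arrays. The wider spread of the wild-type points is therefore in part a result of the choice.

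Whether the knockout difference itself differed between the sexes was tested by the interaction, and 0 of 54 genes passed, against 0.188% of all. An unadjusted p under 0.05 was found for 10 of the 54 and for 2222 of all 26552 genes tested. As many as 8 genes passed in males and not in females, and Ehhadh passed in females and not in males, so none of these is shown to be particular to a sex. Nearest was Hao2 (fitted 7.14 ± 0.82, adjusted p = 0.0529), a fitted value that rests on wild-type male signals not well above background. It passed without wild-type female replicate 1 or replicate 2 and with a spread that follows the level, while with normexp it was 2.41 (adjusted p = 0.257) and with no filter on dim probes its adjusted p was 0.16. Over all its alternatives the adjusted p ran from 0.00354 to 0.257. Abcd2 gave 3.46 ± 0.73 (adjusted p = 0.283), Vnn1 1.87 ± 0.50 (adjusted p = 0.379), Hao1 -1.09 ± 0.20 (adjusted p = 0.216) and Ehhadh 0.72 ± 0.14 (adjusted p = 0.258). Acox2, Acaa1b, Scp2 and Hacl1 lay between -0.39 and 0.47. Crat, the carnitine acetyltransferase, had male arrays higher in knockout without overlap (0.53 ± 0.24) and female ones lower, without passing either test (-0.43 ± 0.24; interaction 0.96 ± 0.33, adjusted p = 0.505). A dimmer Crat probe gave 0.17 in males and -0.11 in females (interaction 0.28, limma adjusted p = 0.897 over all probes). The male and female differences share no array, while each sex comparison shares its arrays with them. All comparisons take their spread from 1 fit over the 8 arrays, so the male and female calls are not independent.

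Other genes of the pathway were read from 4 further lists, whose counts stand beside 10.7% of all genes passing in males and 5.93% in females. Of 20 other mitochondrial oxidation and ketone body genes, 2 rose and 1 fell in males and 1 rose in females, with medians of 0.08 and -0.07. Acad9, a dehydrogenase that also assembles respiratory complex I, rose by 1.29 ± 0.09 in males and 1.26 ± 0.09 in females (adjusted p = 0.000949 and 0.00165). It read 2.79 and 2.81 in wild-type males against 4.13 and 4.06 in males labelled knockout, and 2.83 and 2.81 against 4.07 and 4.09 in females. In males Acacb, whose product makes the malonyl-CoA that inhibits the shuttle, rose by 1.02 ± 0.22, and Bdh2, a cytosolic dehydrogenase, fell by 1.45 ± 0.21. Acad9 changed in both sexes, so the lack of calls holds for the 17 genes above and not for every mitochondrial oxidation gene.

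Of 28 other peroxisome genes measured out of 30, 1 rose and 6 fell in males, and 1 rose and 4 fell in females, with medians of -0.33 and -0.19. Pipox, the oxidase of sarcosine and pipecolic acid, fell by 0.92 ± 0.11 and 0.77 ± 0.11 in males and females (adjusted p = 0.00555 and 0.0155). Amacr, a racemase for branched chains, fell in males by 0.65 ± 0.10, and Acot12, a thioesterase, fell by 0.61 ± 0.10 in males and fell by 0.90 ± 0.10 in females. Agxt, which detoxifies the glyoxylate that Hao1 makes, rose by 1.30 ± 0.20 and 1.16 ± 0.20 (adjusted p = 0.0155 and 0.0313).

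Of 18 other PPARA-responsive genes measured out of 20, 3 rose and 2 fell in males, and 1 rose and 5 fell in females. The acyl-CoA thioesterases Acot3 and Acot4 rose in males, by 4.91 ± 0.18 and 2.35 ± 0.13. Acot4 also rose in females, by 0.64 ± 0.13 (adjusted p = 0.0437). They differed by -4.38 and -1.58 between wild-type males and females, lower in males. Retsat, a retinol saturase, differed by -2.11 ± 0.22 and -1.47 ± 0.22 and fell in both sexes (adjusted p = 0.00416 and 0.0201). In females Acot1, a thioesterase, fell by 2.09 ± 0.21 and the lipid droplet protein Plin4 fell by 3.69 ± 0.38. In males neither passed, but both were lower over 11 alternative fits with 2 arrays a group. Acot1 gave -0.90 to -0.84 and Plin4 -1.57 to -1.08 there, and each passed in 3 of the 11. Of 20 regulators, 0 rose and 3 fell in each sex, so that 15% passed. Ppargc1b, a coactivator, fell in males by 2.35 ± 0.27, and Lpin1 fell in both sexes (-2.03 ± 0.43 and -2.72 ± 0.43). In females Ppargc1b did not pass, and gave -1.25 to -1.04 over the 11 alternative fits, passing in 3. Lpin2 fell in males, from 5.52 and 5.74 to 4.58 and 4.49 (adjusted p = 0.0273), and in females Rxra fell by 0.61 ± 0.10 and Pparg by 1.22 ± 0.24. In males Rxra did not pass, and gave -0.40 to -0.28 over the 11 alternative fits, passing in 2. Ppara itself gave 0.09 in males and -0.57 in females (adjusted p = 0.712 and 0.0619), and neither passed. In females Ppara gave -0.59 to -0.56 over the 11 alternative fits, passing in 4, and in males it passed in none.

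Few of these calls held whichever array was left out. Of 25 calls of a gene in a comparison, 6 were kept in all 8 fits that left out an array: Hao1, Hao2, Nudt7 and Ucp2 between male genotypes, Ehhadh between female genotypes and Hao2 between wild-type sexes. None turned direction. The male count of 14 became 9 and 7 without wild-type male replicate 1 or 2 and 5 and 4 without knockout male replicate 1 or 2, and the female count of 7 became 2 and 3 without knockout female replicate 1 or 2 and 4 without either knockout male.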

How the data were processed

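Per the labels, total RNA of whole liver was labelled with Cy3 and hybridised to Agilent arrays. Per the file headers, Feature Extraction 11.5.1.1 made the deposited intensity values used here, its processed signals; version 9.1.3.1 stands in the submitters' processing notes. A deposited value table holds log2 values, which equalled log2 of the processed signal minus 1 constant per array within 0.01. It was not centred per gene.

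Spots marked as uneven or outliers (55 to 139 an array) were left out, and spots of a probe were averaged. From log2 of the processed signal the array's 75th percentile over probes was subtracted. A probe was kept where some group had it well above background on both arrays (33580), and the probe with the highest mean over 8 arrays stood for a gene (22 of the 54 genes had several; all 79 probes were kept). A model of 4 group means was fitted over the 8 arrays (limma 3.58.1, R 4.3.3), with 4 residual and 2.08 prior degrees of freedom, and 5 contrasts. Python 3.11.15, pandas 2.3.3, numpy 2.4.6 and matplotlib 3.10.9 did the rest. The fit was tested on simulated data for the male genotype comparison. Among 26552 genes, 100 were changed by 1 on the log2 scale and 100 by 2. The fit recovered 42% and 91% of these, with 10 false calls among the other genes. Far fewer genes were changed there than the 10.7% that passed in the real comparison, so the rates may not carry over.

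The genes and the lists were chosen with earlier results of these data known. Any of the 54 could be named, those past the threshold with every array, and from each other pathway list up to 3 genes past it per comparison with the smallest adjusted p. Alternatives were other background corrections, scalings, filters, probe rules and spreads, the replicate number as a block and each array left out.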

Additional observations from a re-analysis of the deposited data

Results flagged for a closer look

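The difference between arrays labelled knockout and wild type differed between the sexes for Acot3, an acyl-CoA thioesterase outside the 54 genes, by 4.09 ± 0.26 (SE) in the interaction term (limma adjusted p = 0.00948), with 4.91 in males and 0.82 in females. For the related Acot4 the interaction was 1.71 ± 0.18 (limma adjusted p = 0.0397), with 2.35 in males and 0.64 in females.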

How the results depend on the processing

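No call among the 54 genes turned direction in the alternatives run. The male genotype count of 14 was 8 with no filter on dim probes and 4 to 15 with an array left out. The female genotype count of 7 was 15 with normexp background correction, 2 with no filter, 1 in a fit of only the groups compared, 12 with a spread that follows the level and 2 to 6 with an array left out. The wild-type sex count of 4 was 7 with normexp, 1 with no filter, 0 in a fit of only the groups compared and 1 to 5 with an array left out. The interaction count of 0 was 1 with a spread that follows the level and 0 to 2 with an array left out. With an array left out, the median female genotype difference ran from -0.20 to -0.0056 (mitochondria) and from -0.32 to -0.18 (peroxisomes). The wild-type sex median ran from -0.18 to -0.035 and from -0.041 to 0.16, and the mitochondrial one was -0.19 with quantile normalization. The cause was not tested. Of the 25 calls, 8 were kept in each of the other fits run and 4 in all fits (Hao1, Hao2, Nudt7 and Ucp2 between male genotypes; Hao2 could not be tested where all 8 arrays had to be above background). Differences that did not pass and turned with an array left out were those between female genotypes of Abcd2 (-0.999 to 0.61), Hao2 (-0.31 to 1.60), Vnn1 (-0.32 to 0.28) and Bcl6 (-0.29 to 2.50), the Hao2 one passing without wild-type female replicate 1 (1.60, adjusted p = 0.0348), and Vnn1 gave 0.0778 with normexp and 0.00352 with quantile normalization. Replicate numbers did not pair the samples (correlation of deviations -0.00173 to 0.102). With the replicate number as a block 15, 7, 3, 0 and 0 genes passed in the male genotype, female genotype, wild-type sex, knockout sex and interaction comparisons. Acot3 and Acot4 kept the interaction call in 14 and 8 of 18 fits.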
